A study of Mus musculus with 2 samples.

Results

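The Cd300 genes encode receptors of the immunoglobulin superfamily that sit on the surface of myeloid cells and of some other cells. The 6 members described here are Cd300a, Cd300lb, Cd300ld, Cd300e, Cd300lf and Cd300lg. Their open chromatin was read from ATAC-seq of blood monocytes, an assay in which the Tn5 transposase cuts DNA that is not wrapped in nucleosomes. A region was assigned to a member where its summit, the position of strongest signal, lay in the gene body. It was also assigned where the member's transcription start site (TSS) was the nearest of all protein-coding transcripts and lay within 100 kb. By this rule 24 of 28438 open regions belonged to the 6 members, and 6 belonged to the 6 other protein-coding Cd300 genes, 1 of them shared with Cd300e.

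The study held 1 group, monocytes from peripheral blood of C57BL/6J mice, which were adults aged 5 to 6 weeks, with no allele or treatment given and no control group. There were 2 replicates of 50000 cells each. Both replicates carry 1 donor identifier, and the labels name no separate animals, so their difference may be technical only. The sources used here do not give how the monocytes were purified. With 1 group no test between conditions was possible, so every value below is a description, without a p-value.

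Most Cd300 receptors have 1 immunoglobulin-like domain outside the cell, and several of them bind phospholipids that dying cells expose. Cd300a and Cd300lf carry inhibitory motifs in their cytoplasmic tails, which recruit phosphatases such as the product of Ptpn6. Cd300lb and Cd300e have short tails and signal through the adaptor encoded by Tyrobp, and Cd300ld can signal through the adaptor encoded by Fcer1g. Cd300lg, also called nepmucin, is best known from the endothelium of small vessels and lymph node venules.

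The value given for a region is its fold enrichment over background, a linear ratio that the authors computed for each peak. The pooled fold is that of the authors' conservative set, a joint list of both replicates. The folds of replicate 1 and replicate 2 come from each replicate's own looser, pseudoreplicated set. The lists carry no counts of reads, which leaves library depth unknown and allows no counting interval. In bulk cells, a site open in fewer cells and a site less open in each cell cannot be told apart.

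Positions are on mm10, and the sequences shown are RefSeq GRCm38.p6 on the plus strand unless another strand is named. The first set shows bases outside exons from the member regions with the highest pooled fold, because the strongest signals of the family lie in these regions. Capitals mark matches, on either strand, to 9 motif strings of transcription factors of blood cells. For the promoter of Cd300lf only the 88 bases upstream of the first exon of predicted RefSeq transcripts are shown, and no motif match lies within them. The summit of this region lies outside these bases. So do its PU.1 and RUNX matches, 8 and 34 bp from the summit.

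Cd300lf promoter, upstream of the first exon, chr11:115134009-115134096: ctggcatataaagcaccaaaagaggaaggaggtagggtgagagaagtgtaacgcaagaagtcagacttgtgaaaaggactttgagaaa
Cd300lg, 1.17 kb upstream of the TSS, chr11:102040240-102040440: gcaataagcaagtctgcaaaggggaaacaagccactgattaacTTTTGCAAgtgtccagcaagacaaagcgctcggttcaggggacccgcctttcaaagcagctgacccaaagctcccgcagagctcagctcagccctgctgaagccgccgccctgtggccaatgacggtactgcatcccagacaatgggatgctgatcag
Cd300ld, just past the end of the gene, chr11:114981988-114982188: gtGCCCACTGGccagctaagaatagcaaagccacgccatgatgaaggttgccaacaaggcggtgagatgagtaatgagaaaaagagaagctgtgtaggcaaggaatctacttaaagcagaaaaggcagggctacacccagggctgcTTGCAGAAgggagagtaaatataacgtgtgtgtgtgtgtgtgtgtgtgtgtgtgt
Cd300lf, 5.10 kb upstream of the TSS, chr11:115138995-115139195: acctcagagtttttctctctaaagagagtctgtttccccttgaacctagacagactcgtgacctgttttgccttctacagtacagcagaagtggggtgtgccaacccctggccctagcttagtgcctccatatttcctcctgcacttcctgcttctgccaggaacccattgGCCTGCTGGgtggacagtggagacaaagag

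The second set is shown for the C/EBP string TTGCNNAA, which is described after the values. It holds the 4 regions of Cd300e, each with a match, and the Cd300a region that holds 2 matches of TTGCACAA and 2 of the RUNX string TGTGGTT, read here on the minus strand.

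Cd300e, intron 2, chr11:115054671-115054871: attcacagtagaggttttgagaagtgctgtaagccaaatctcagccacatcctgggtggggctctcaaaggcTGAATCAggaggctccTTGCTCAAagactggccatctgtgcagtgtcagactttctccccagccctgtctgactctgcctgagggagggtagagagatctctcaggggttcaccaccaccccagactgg
Cd300e, intron 1, chr11:115059890-115060090: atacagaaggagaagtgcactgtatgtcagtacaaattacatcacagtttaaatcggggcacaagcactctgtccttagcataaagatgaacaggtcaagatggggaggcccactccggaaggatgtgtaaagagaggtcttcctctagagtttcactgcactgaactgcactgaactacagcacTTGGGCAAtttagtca
Cd300e, 4.74 kb upstream of the TSS, chr11:115066817-115067017: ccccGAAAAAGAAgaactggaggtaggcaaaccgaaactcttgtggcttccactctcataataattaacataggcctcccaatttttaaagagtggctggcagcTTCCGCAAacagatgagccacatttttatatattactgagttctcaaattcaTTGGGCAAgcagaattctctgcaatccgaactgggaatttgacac
Cd300e, 9.67 kb upstream of the TSS, chr11:115071743-115071943: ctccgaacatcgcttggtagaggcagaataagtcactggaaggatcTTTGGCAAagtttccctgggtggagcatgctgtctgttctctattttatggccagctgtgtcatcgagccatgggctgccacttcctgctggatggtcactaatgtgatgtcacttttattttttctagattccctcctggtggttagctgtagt
Cd300a, past the end of the gene, chr11:114907724-114907924: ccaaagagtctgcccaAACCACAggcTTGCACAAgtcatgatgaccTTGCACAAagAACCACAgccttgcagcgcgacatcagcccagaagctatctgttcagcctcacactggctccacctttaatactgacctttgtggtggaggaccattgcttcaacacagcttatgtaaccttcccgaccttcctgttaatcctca

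Of the 12 protein-coding Cd300 genes, 11 lie side by side in 244 kb of chromosome 11, from chr11:114890041 to chr11:115133992. The cluster holds 5 of the 6 members. Cd300lg lies 12.8 Mb away on the same chromosome. Between these positions lay the summits of 25 open regions, or 10.2 per 100 kb. Over all 2725.52 Mb of the chromosomes used, with or without genes, there were 1.04 per 100 kb. The 25 include regions assigned only to Rab37. They leave out the promoter region of Cd300lf, whose summit lies 4 bp past the end. The regions fell into groups rather than an even row. The longest stretch without a region ran 43.6 kb from chr11:115004632 to chr11:115048260 and held the starts of Cd300ld2, Cd300ld4 and Cd300ld5. Another stretch of 35.8 kb separated the Cd300e side from Cd300lf and held a start of Rab37. The next, of 30.8 kb, ran from chr11:114934607, upstream of Cd300lb, to chr11:114965446 inside Cd300c and held the protein-coding start of Cd300c.

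**Figure D1:**
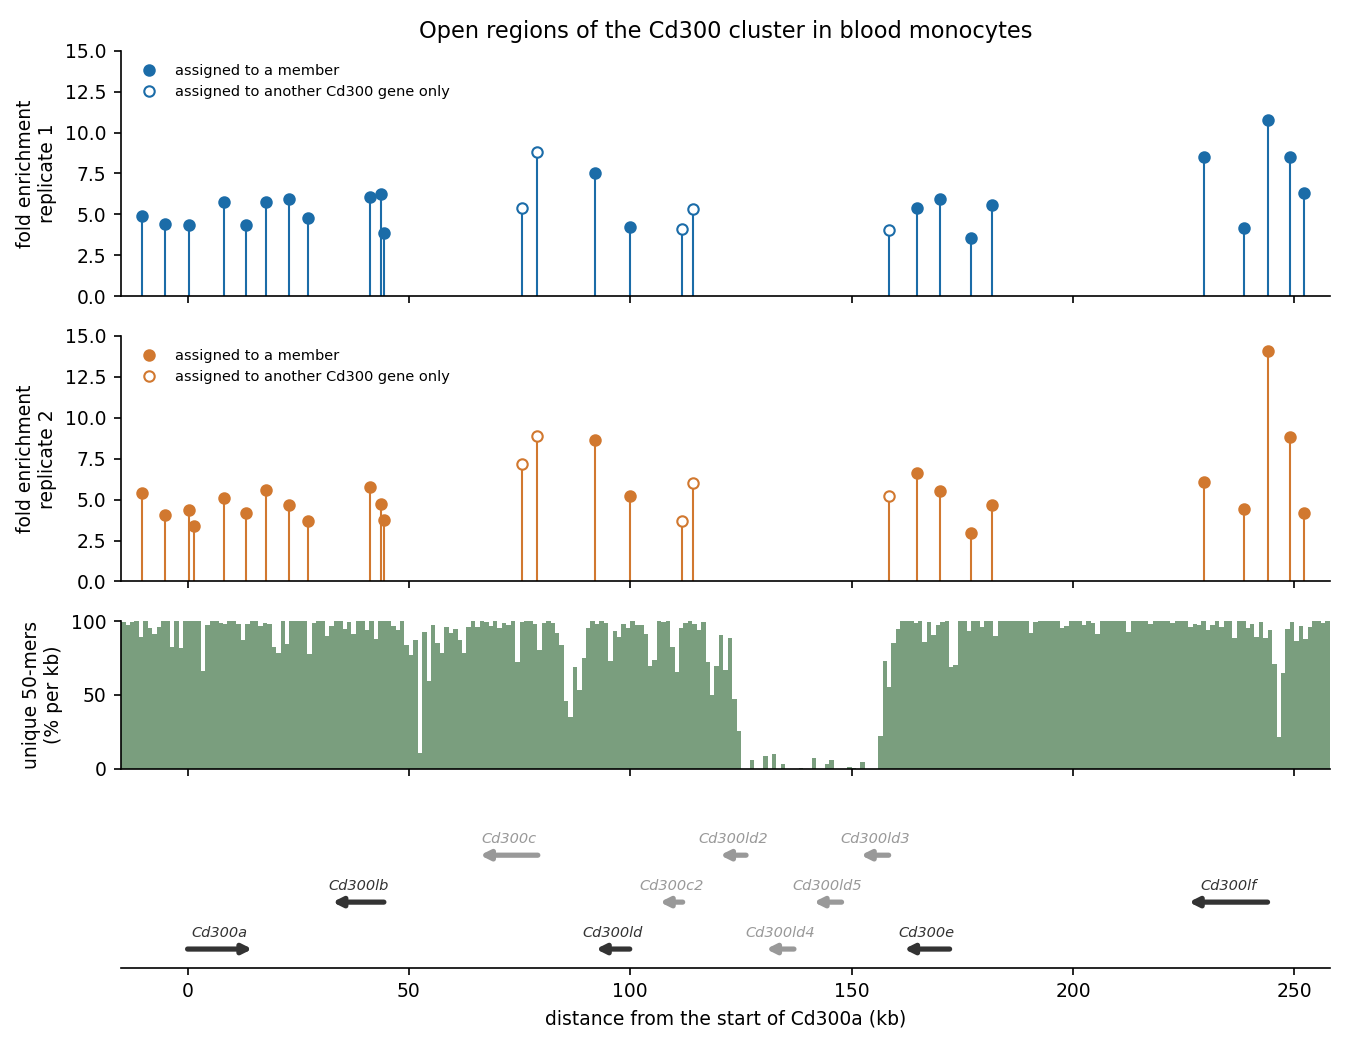
Fold enrichment (linear ratio) of the open regions of the Cd300 cluster in replicate 1 and replicate 2, by distance in kb from the start of Cd300a, above the share of 50-mers in each kb that occur once in the genome and the gene arrows. Filled points are regions assigned to a member, and open points belong only to another Cd300 gene. The tallest point is the promoter of Cd300lf at 10.7 and 14.1, and no region is seen over Cd300ld2, with 49.4% unique 50-mers in its gene body, Cd300ld4, with 2.08%, and Cd300ld5, with 1.43%.

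All 6 members had at least 1 assigned region, as did 58.2% of the 21853 protein-coding genes. Cd300a had 7 regions, Cd300lb 5, Cd300lf 5, Cd300e 4, Cd300ld 2 and Cd300lg 1. Thus 4 of the 6 members had at least 4 regions, against 9.96% of protein-coding genes. The cut of 4 equals the count of Cd300e, which had 3 regions by nearest TSS alone. All 5 regions of Cd300lf were also assigned to Rab37. Only 2.92% of protein-coding genes had as many regions as Cd300a or more, and 6.33% had as many as Cd300lb and Cd300lf or more. Cd300ld and Cd300lg were nearer to the general level, with 31.0% and 58.2% of genes at or above their counts. Neighbours in this order are separated by 1 region or share a count, except for the steps of 2 between Cd300a and the next genes and between Cd300e and Cd300ld.

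A promoter was called open where a region came within 1 kb of a protein-coding TSS. This held for 5 of the 6 members, against 46.6% of protein-coding genes. The exception was Cd300e. Cd300lg passed by a small margin, because the near edge of its region lay 998 bp from the TSS, and it did not pass with a window of 500 bp, which left 4 members. With a window of 2000 bp all 6 passed, Cd300e through a region whose near edge lay 1880 bp from its TSS.

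The pooled folds of the 24 member regions ran from 3.14 to 13.8, with a median of 5.33 and quartiles of 4.30 and 6.36. Over all 28438 regions the median was 6.49 and the quartiles were 5.16 and 8.44. Only 6 of the 24 lay above the median of all regions, and 5 lay above the upper quartile. The family was therefore dense in regions of moderate fold, with a few strong ones. Their median width of 461 bp was close to the 448 bp of all regions, and 8 of the 24 had several summits (33.3%, against 29.9% of all regions). The 6 regions within 1 kb of a TSS had a median pooled fold of 5.40, the 8 deeper in gene bodies 5.42 and the 10 outside gene bodies 5.33.

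Among the inhibitory receptors, Cd300lf (chr11:115116214-115133992, minus strand, ENSMUSG00000047798.15) had the strongest region of the family. It lay at chr11:115133823-115134202 over the TSS, with its summit 4 bp upstream. Its fold was 10.7 in replicate 1 and 14.1 in replicate 2, a mean of 12.4 ± 2.36 (SD, n = 2), and the pooled value was 13.8 with a −log10 p of 110. Of all open regions, 98.3% had a fold at or below this one. In both replicates it stood above every other member region. A second region 5.10 kb upstream (chr11:115138870-115139305) read 8.50 and 8.83. The region in intron 4 (chr11:115119394-115120072) read 8.54 and 6.09, a mean of 7.31 ± 1.73 (SD, n = 2). The replicates differed more here than at the upstream region.

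The other 2 Cd300lf regions were weaker. In intron 1, 5.38 kb from the TSS (chr11:115128097-115128839), the fold was 4.17 and 4.43. At 8.18 kb upstream (chr11:115141946-115142357) it was 6.28 in replicate 1 and 4.20 in replicate 2, the only member region whose replicates differed by more than 0.5 on the log2 scale (a log2 ratio of replicate 2 to replicate 1 of -0.58). All 5 Cd300lf regions also lie inside Rab37, a gene of vesicle transport that runs on the opposite strand around Cd300lf. The assignment to Cd300lf rests on position, and these lists cannot assign an intronic site to one of the nested genes.

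Cd300a (chr11:114890041-114904654, plus strand, ENSMUSG00000034652.12) had the most regions and an even, moderate profile. Its promoter region, chr11:114889993-114890810, covered the TSS and the 5′ UTR of exon 1 and read 4.38 in replicate 1 and 4.37 in replicate 2, a mean of 4.38 ± 0.00893 (SD, n = 2). The region past the end of the gene, 17.8 kb downstream of the TSS (chr11:114907545-114908454), read 5.75 and 5.59. The region in intron 4 (chr11:114897683-114898516) read 5.78 and 5.09. Both of these therefore stood above the promoter of the same gene in each replicate.

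The remaining Cd300a regions lay on both sides of the gene. At 10.2 kb upstream (chr11:114879694-114880018) the fold was 4.89 and 5.42, and at 5.18 kb upstream (chr11:114884683-114885087) it was 4.43 and 4.07. In exon 7, over the 3′ UTR (chr11:114902996-114903680), it was 4.37 and 4.16. The region in intron 1 (chr11:114891255-114891509) was found only in replicate 2, at 3.38, and was the only one of the 24 missing from a replicate's looser set. None of the 7 reached the median fold of all regions.

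Of the activating receptors, Cd300lb (chr11:114922781-114934386, minus strand, ENSMUSG00000063193.8) had a weak region at its TSS and, by pooled fold, stronger ones inside and beyond the gene. The region over the TSS (chr11:114934254-114934606) read 3.86 and 3.75. In intron 1, 591 bp downstream (chr11:114933486-114933937), the fold was 6.22 in replicate 1 and 4.73 in replicate 2. Also in intron 1, at 3.14 kb (chr11:114930987-114931456), it was 6.09 and 5.79, a mean of 5.94 ± 0.212 (SD, n = 2). The intronic regions thus stood above the TSS region in both replicates.

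The other 2 Cd300lb regions lay between the end of Cd300lb and the end of Cd300a, which points towards it. The one at chr11:114917009-114917484, 17.1 kb from the TSS, read 4.76 and 3.68, the latter below the 3.75 of the TSS region in replicate 2. The one at chr11:114912892-114913291 read 5.97 and 4.65 and lay 21.3 kb from the TSS, the greatest distance of any member region. The 100 kb limit therefore decided no member region, and a limit of 50 kb gave the same 24.

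Cd300e (chr11:115051917-115062177, minus strand, ENSMUSG00000048498.7) was the member without an open promoter at 1 kb. Its 4 regions lay in introns and upstream. In intron 2 (chr11:115054467-115055279) the fold was 5.36 and 6.64, a mean of 6.00 ± 0.904 (SD, n = 2), and this region is nearer to the TSS of Cd300ld3 (6.36 kb) than to that of Cd300e (7.41 kb). In intron 1, 2.19 kb from the TSS (chr11:115059643-115060297), it was 5.91 and 5.55. At 9.67 kb upstream (chr11:115071648-115072391) it was 5.60 and 4.66.

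The last Cd300e region, 4.74 kb upstream (chr11:115066813-115067240), read 3.55 and 2.99 and had the lowest pooled fold of the 24, at 3.14. Its summit lay 241 bp from the start of a predicted RefSeq transcript of Cd300e at chr11:115066676, which is not a protein-coding start of the gene models used. No region came within 1 kb of the annotated TSS in the conservative set, in either replicate's thresholded set or in either looser set. Of the 50-mers in the 1 kb on each side of that TSS, 82.7% occur once in the genome, the lowest share among the 6 members.

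Cd300ld (chr11:114982274-114989922, minus strand, ENSMUSG00000034641.2) had 2 regions, 1 at each end of the gene and none inside it. The region just past the end of the gene, 7.83 kb from the TSS (chr11:114981902-114982245), read 7.55 and 8.67, a mean of 8.11 ± 0.792 (SD, n = 2). The region over the TSS (chr11:114989721-114990319) read 4.21 and 5.22, a mean of 4.71 ± 0.719 (SD, n = 2). The distal region was the higher of the pair in both replicates. The promoter region appeared only in the looser sets of the replicates and in neither thresholded set.

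Cd300lg (chr11:102041509-102055620, plus strand, ENSMUSG00000017309.11) had a single region, 1.17 kb upstream of its TSS at chr11:102040135-102040511. It read 8.45 in replicate 1 and 9.95 in replicate 2, a mean of 9.20 ± 1.06 (SD, n = 2), and 85.6% of all regions had a pooled fold at or below its 9.84. It was the second strongest member region by pooled fold. The authors' replicated set, which is looser, held 2 further regions, each found in 1 replicate. The region at chr11:102041427-102041855 covered the TSS with its summit 243 bp downstream, had a pooled fold of 3.17 and read 3.83 in replicate 1. The region at chr11:102061248-102061475, 19.8 kb downstream of the TSS and past the end of the gene, had a pooled fold of 5.02 and read 4.92 in replicate 2. Markers of endothelium, the tissue for which Cd300lg is best known, had an open promoter in 2 of 6 genes, against 46.6% of protein-coding genes. They were Pecam1, at 5.43 and 5.28 in replicates 1 and 2, and Cdh5, at 4.82 and 4.02. The other endothelial markers had no open promoter. The part of other cells in the Cd300lg region was not tested.

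**Figure D2:**
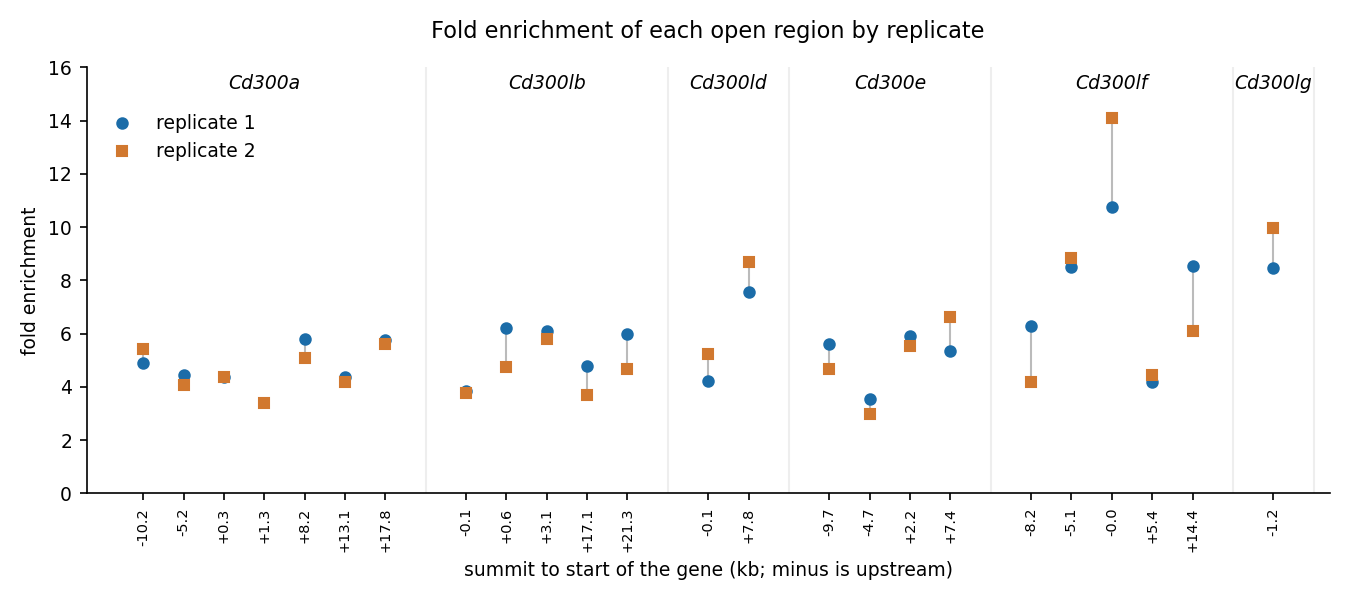
Fold enrichment (linear ratio) of the 24 member regions in replicate 1 (circles) and replicate 2 (squares), in order of the distance in kb from the summit to the start of the gene, minus being upstream. The Cd300lf promoter stands highest, Cd300a regions all lie between 3 and 6, and 1 Cd300a region has no value in replicate 1.

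Read in the looser sets, 23 of the 24 member regions were found in both replicates, against 91.1% of all regions. In the thresholded sets of the replicates, which keep peaks by the agreement of their ranks, 15 of the 24 were found in both, against 50.3%, and 5 were found in neither, against 8439 of all 28438. Replicate 1 held 18 of the 24 and replicate 2 held 16, while of all regions they held 16997 and 17312. The 5 missing from both were the intron 1 region of Cd300a found only in replicate 2, the TSS regions of Cd300lb and Cd300ld, the 4.74 kb upstream region of Cd300e and the intron 1 region of Cd300lf. The median log2 ratio of replicate 2 to replicate 1 over the 23 regions was -0.07, with an SD of 0.27, against -0.03 and 0.24 over all regions. Replicate 1 was the higher in 15 and replicate 2 in 8, and over all regions replicate 2 was the higher in 44.6%.

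With the thresholded set of each replicate alone, open promoters were fewer. The promoters of Cd300lb and Cd300lf were called in both replicates, that of Cd300a in replicate 2 only, and those of Cd300ld, Cd300e and Cd300lg in neither. The upstream region of Cd300lg was itself in both thresholded sets, but its peaks there did not come within 1 kb of the TSS. In the looser sets, every member except Cd300e had an open promoter in both replicates, with Cd300lg in replicate 1 only as a further exception. Counts of regions in the thresholded sets were 6 and 6 for Cd300a, 4 and 3 for Cd300lb, 4 and 3 for Cd300lf, 3 and 2 for Cd300e, 1 and 1 for Cd300ld and 1 and 1 for Cd300lg. Cd300a thus had the highest count in each replicate.

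**Figure D3:**
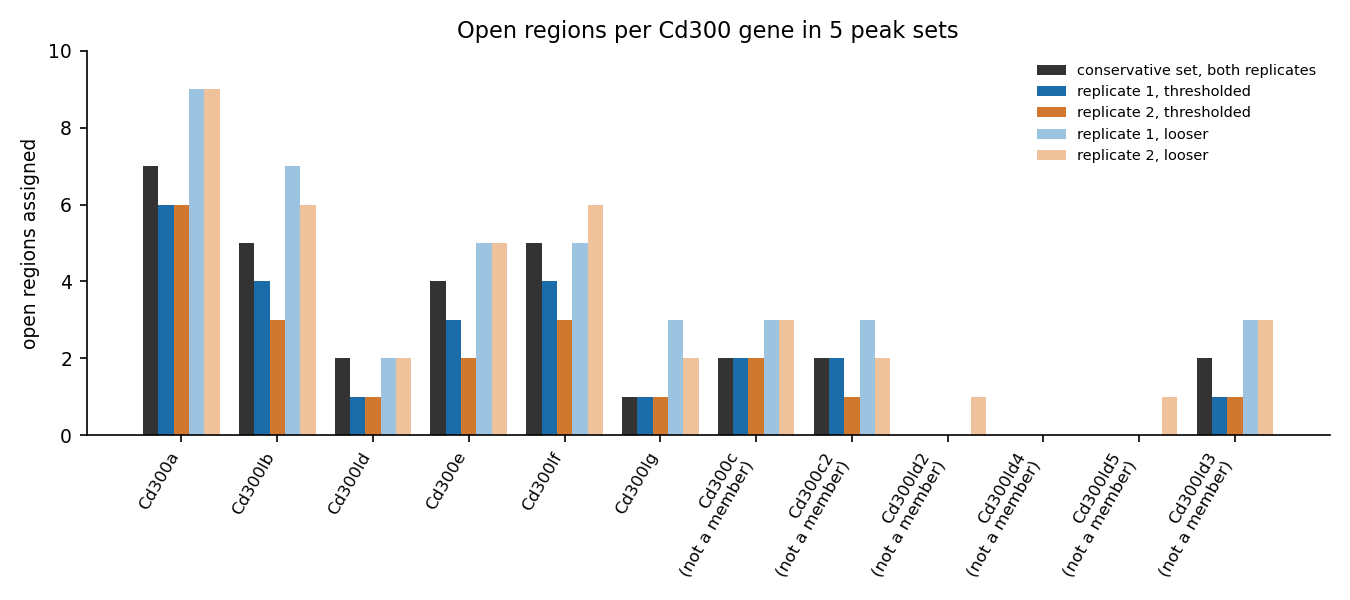
Number of open regions assigned to each Cd300 gene (vertical axis) in the conservative set and in the thresholded and looser sets of each replicate. Cd300a has the tallest bars in all 5 sets, from 6 to 9 regions, while Cd300ld4 has none in any of them.

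The replicated set added 15 member regions to the 24. Their pooled folds ran from 2.06 to 5.02, with a median of 2.83. Only 1 of the 15 was found in both replicates' looser sets, at chr11:115066031-115066699, 4.37 kb upstream of Cd300e, with folds of 2.94 and 3.59. A further 10 were found in 1 replicate and 4 in neither.

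Just outside the rule lay 3 regions near members that were assigned to Rab37. They were chr11:115080932-115081220, 18.9 kb from the TSS of Cd300e with a pooled fold of 5.60, chr11:115083415-115083620, 21.3 kb from it with 3.99, and chr11:115153583-115154278, 20.1 kb from the TSS of Cd300lf with 5.59. Another, chr11:114858700-114858974, lay 31.2 kb from the TSS of Cd300a with a pooled fold of 8.82 and was assigned to Gprc5c.

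The paralogues that are not members had 2 regions or none. Cd300c, Cd300c2 and Cd300ld3 had 2 regions each, 1 of them the intron 2 region of Cd300e. This was as many as the member Cd300ld had and more than Cd300lg. The pooled folds of the Cd300c regions were 6.60 and 9.69. By contrast, Cd300ld2, Cd300ld4 and Cd300ld5 had no region in the conservative set. Much of the sequence there is repeated. Of the 50-mers within 1 kb of the TSS, 0.700% occur once in the genome for Cd300ld2, and 0% for Cd300ld4 and Cd300ld5, against 82.7% to 100% for the 6 members. Cd300ld3 lay between them, with 61.3%. Its promoter was open in the conservative set, through a region with 62.2% unique 50-mers and a pooled fold of 5.01. In the gene bodies the share was 49.4% for Cd300ld2, 2.08% for Cd300ld4 and 1.43% for Cd300ld5. That of the Cd300ld3 gene body lay between those of Cd300ld2 and Cd300ld4. Over the 43.6 kb without a region the share was 20.6%, and over the 35.8 kb at Rab37, also without a region, it was 99.0%. In the replicated set, regions lay at the starts of Cd300ld4 (pooled fold 3.63) and Cd300ld5 (3.03), and none of their 50-mers was unique. The Cd300ld4 region was found in neither replicate's looser set, and the Cd300ld5 region in that of replicate 2 only. The replicated set also held a region at the protein-coding start of Cd300c, with a pooled fold of 4.88 and 100% unique 50-mers. This Cd300c region was found in both replicates' looser sets. The sources used here give neither the read length nor the treatment of reads with several matches, and the part of repeated sequence in the missing regions was not tested. The 24 member regions themselves had 94.2% to 100% unique 50-mers.

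The likeness of these promoters can be read directly. Over the 300 bases from 250 before to 50 after the TSS, Cd300ld4 and Cd300ld5 were identical, Cd300ld3 was 96.3% identical to each, and Cd300ld was 89.1% identical to Cd300ld3. Among the 15 pairs of members identity was 41.5% to 51.1%, with a median of 46.8%. The 100 bases that start 60 bases upstream of the TSS are shown on the minus strand, the strand of these genes, to let a member, Cd300ld, be compared with its near copies. Capitals mark bases that differ from Cd300ld3 in the alignment.

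Cd300ld3, chr11:115048469-115048568: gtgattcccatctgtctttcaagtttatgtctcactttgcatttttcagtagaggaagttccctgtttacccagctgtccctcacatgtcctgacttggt
Cd300ld4, chr11:115027072-115027171: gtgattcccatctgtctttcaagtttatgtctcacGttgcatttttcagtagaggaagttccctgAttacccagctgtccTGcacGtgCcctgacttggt
Cd300ld5, chr11:115037829-115037928: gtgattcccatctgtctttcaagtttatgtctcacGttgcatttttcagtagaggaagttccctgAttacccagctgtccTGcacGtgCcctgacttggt
Cd300ld, chr11:114989982-114990081: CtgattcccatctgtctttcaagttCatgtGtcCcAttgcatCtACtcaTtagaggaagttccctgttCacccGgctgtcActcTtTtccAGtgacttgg

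Cd300ld4 and Cd300ld5 each had 94 bases identical to Cd300ld3, and Cd300ld had 84. All 4 sequences hold the PU.1 string GAGGAAGT once, with no capital in it. In Cd300ld this string lay 12 bp from the summit of the TSS region. PU.1, encoded by Spi1, is a factor that myeloid cells need.

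The 9 motif strings were counted in the 100 bp on each side of each summit, on both strands, and a match is a description of the letters only. The C/EBP string TTGCNNAA was found in 9 of the 24 member regions (37.5%), against 10.8% of all regions. All regions include those at promoters, whereas 18 of the 24 lay more than 1 kb from a TSS of the member. No share was computed for all regions away from a TSS. C/EBP factors are transcription factors that act in myeloid cells. The 9 were all 4 regions of Cd300e, 2 of Cd300a and 1 each of Cd300ld, Cd300lf and Cd300lg, and no Cd300lb region had a match. The matches lay 8 to 88 bp from the summit, and with 50 bp on each side only 3 of the 24 held one, against 5.96% of all regions. With 150 bp the counts were 10 of 24 and 14.3%. That all 4 Cd300e regions held the string was singled out after the counts had been seen.

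The other strings were found in few member regions. PU.1 GAGGAAGT was in 3 of 24, against 8.94% of all regions, at Cd300lb, at the TSS of Cd300ld and at the TSS of Cd300lf. The composite string of ETS and IRF factors, GGAANNGAA, was in 2 (8.72% of all) and the IRF string GAAANNGAA in 3 (6.76%). The AP-1 string TGANTCA was in 3 (8.47%), and the RUNX string TGTGGTT was in 3 (7.2%), 2 at Cd300a and 1 at the TSS of Cd300lf. The KLF string GGGNGTGG was in 4 (13.4%). The CTCF string CNAGNNGGC, a short part of the site of a factor that organises loops of chromatin, was in 4 (21.9%), and the NF-kB string GGGANTTTC was in none (0.791%). With 24 regions, 1 region is a step of 4.17%, so small differences from these shares are not readable. None of the 9 strings was found in 3 of the 24 regions, against 37.8% of all regions. The median GC content of these windows was 51.0% for the members and 53.7% for all regions. The median number of CG pairs of bases per window was 2.5 for the members and 5 for all regions, and the part of this difference in the motif shares was not tested.

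**Figure D4:**
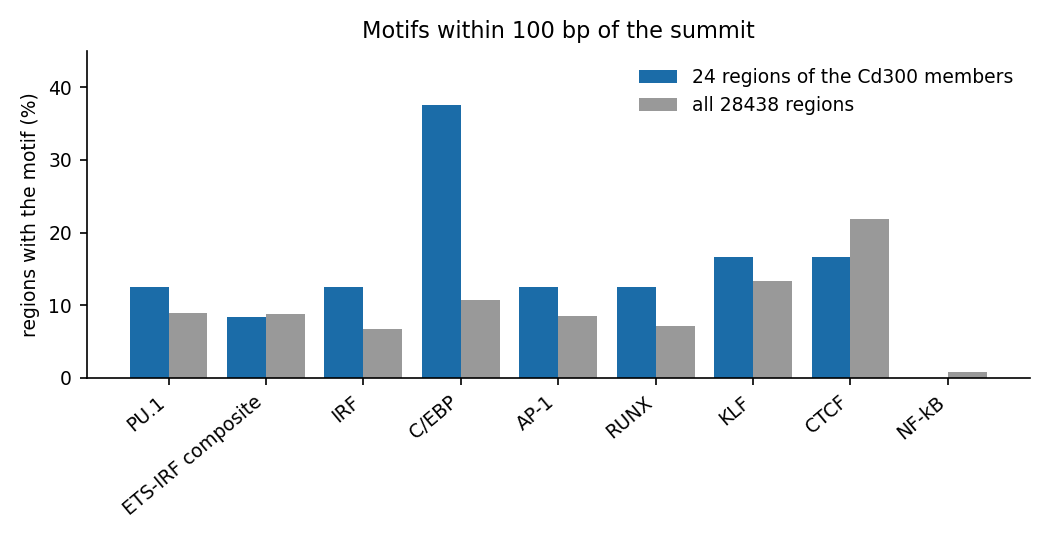
Share of regions (%) with each of 9 motif strings within 100 bp of the summit, for the 24 member regions and for all 28438. The C/EBP bars stand at 37.5% and 10.8%, and the other bars of the members stand for 0 to 4 regions each.

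The genes through which these receptors signal were read in the same set. Of 18 signalling genes, 15 had an open promoter and 16 had a region, against 46.6% and 58.2% of protein-coding genes. Lyn, a Src-family kinase, had 14 regions, and Plcg2, a phospholipase, had 10, while the kinases Btk and Zap70 had none. The promoter of Tyrobp, the adaptor of Cd300lb and Cd300e, read 4.76 in replicate 1 and 5.68 in replicate 2. That of Fcer1g, the adaptor used by Cd300ld, read 7.91 and 7.16. That of Ptpn6, the phosphatase recruited by the inhibitory tails, read 8.64 and 7.10. Each adaptor and the phosphatase therefore had an open promoter in both replicates.

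Of 20 receptors listed as related, not all of them of myeloid cells, 18 were matched to the gene models. Of these, 9 had an open promoter and 14 had a region, where 46.6% and 58.2% of protein-coding genes did. Sirpa and Havcr2 had 6 regions each and Trem1 had 4. Among the 14 protein-coding genes with a TSS within 100 kb of a member's TSS, 6 had an open promoter and 9 had a region. Of the 6 paralogues, 2 had an open promoter and 3 had a region, and 3 of them have almost no unique 50-mers around the TSS, as given above. For open promoters, the counts of related receptors and of neighbours were thus near the share of protein-coding genes at large.

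Marker genes were read beside the label of the cells, from lists chosen with earlier results of these data known. Of 12 monocyte markers, all had a region and 11 had an open promoter, against 58.2% and 46.6% of protein-coding genes. The marker without an open promoter was Ccr2. Other cell types had open promoters in 2 of 6 B-cell, 1 of 6 T-cell and 1 of 6 NK-cell markers. The counts were 0 of 6 for neutrophils, 1 of 6 for erythroid cells and platelets and 2 of 6 for endothelium. The T-cell promoter, that of Cd3d, read 11.7 and 11.2 in replicates 1 and 2, with a pooled fold of 12.1. The highest pooled fold of a monocyte marker promoter was 7.17. Klrb1c, an NK-cell marker, had 7 regions but no open promoter. An open promoter does not show that a gene is expressed, and the part of other cell types in the member regions was not tested.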

How the data were processed

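The data were ATAC-seq peak lists of monocytes in 2 replicates, on mm10 per the labels. The authors deposited separate lists for each replicate and joint lists, and their README names 1 further input to the joint sets without describing it. The fold of a peak is a linear ratio, its strength a −log10 p and −log10 q, and its rank a score, all as deposited by the authors. The thresholded sets hold no score under 540. The sources used here name no aligner, caller or Tn5 shift. Without counts, depth and the precision it gives are unknown.

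Overlapping peaks of the conservative set on chromosomes 1 to 19, X and Y (39944 peaks) were joined into 28438 regions, each taking its highest fold and its summit of smallest p. A region was found in a replicate where a peak overlapped it by at least 1 bp, and took the highest overlapping fold. Gene models were GENCODE M21 and sequence RefSeq GRCm38.p6. Unique 50-mers were counted on both strands. Assignment and counting were tested on simulated data. The genes named are the 6 members, the other Cd300 genes, neighbours, and fixed lists, of which the 3 with most regions and up to 2 with none may be named. Tyrobp, Fcer1g, Ptpn6, Pecam1, Cdh5, Ccr2, Cd3d and Klrb1c were named for their role beside a result, outside that rule. The members and lists were chosen with earlier results of these data known. Ranked lists were not used. Alternatives were other peak sets, each replicate alone, unmerged peaks, and other distances, windows and overlaps. Scripts ran in Python 3.11.15 with pandas 2.3.3, numpy 2.4.6 and, for figures, matplotlib 3.10.9.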

Additional observations from a re-analysis of the deposited data

How the results depend on the processing

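The count of member regions kept within 1.5 times of 24 in the IDR-thresholded set, with a stricter q, unmerged, with 1 TSS per gene, at 50 kb and by nearest TSS alone, and rose to 39 in the replicated set and 38 in the pseudoreplicated set of the series. In the replicated set Cd300a had 13 regions, Cd300lb 8, Cd300e 7 and Cd300lg 3, and in the pseudoreplicated set Cd300a had 12, Cd300lb 8 and Cd300lg 4. The IDR-thresholded set gave Cd300lg 2. With peaks not merged, Cd300a had 12, Cd300ld 4 and Cd300e 7. Leaving out a replicate gave 16 to 19 regions in all, 6 to 6 for Cd300a, 3 to 4 for Cd300lb, 1 to 1 for Cd300ld, 2 to 3 for Cd300e, 3 to 4 for Cd300lf and 1 to 1 for Cd300lg, and 2 to 3 open promoters in place of 5 (3 without replicate 1, 2 without replicate 2). Regions found in both replicates fell from 23 to 15 with the thresholded sets. With 50 bp on each side of the summit, member regions with a string numbered 3 for C/EBP, 2 for KLF and 1 each for CTCF, AP-1, IRF and the ETS-IRF composite, and with 150 bp 5 for IRF and 5 for RUNX. The cause was not tested, beyond the fewer or more peaks and bases each set or window holds. The median replicate-mean fold was 5.31 by the highest overlapping peak and by the peak nearest the summit. No paired analysis was possible because there is 1 group. Depth is unknown, so a missing region was not called at the authors' thresholds and is not shown to be closed.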
